A study of Mus musculus with 45 samples.

Results

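The taste transduction cascade was examined in small-intestinal tuft cells of mice fed a high-fat diet (HFD) or a reference diet (RFD). It was represented by 7 genes chosen by name, Gnat3, Gnb3, Gng13, Plcb2, Itpr3, Trpm5 and Rgs13, of 36172 genes with a read in the tables. All 7 were found by their Ensembl identifiers, and 6 of them had enough reads to be tested among 14020 genes (over 5 reads in 6 or more of 45 libraries). Gnb3 did not pass that filter. Male C57BL/6J mice arrived at 5 weeks of age, spent 1 week on chow, were housed at 30 °C and were then fed HFD (60% fat) or RFD (10% fat) for 9 weeks (STF libraries, 11 per diet) or 22 weeks (LTF libraries, 11 on RFD and 12 on HFD). Live EpCAM+ Siglec-F+ cells from 20 cm of small intestine of 1 mouse gave each bulk library, which was amplified by Smart-seq2. The methods of the study write these cells as CD45+, but also state that CD45 served to leave out cells that carry it. The labels give 9 weeks for all 45 libraries, while the methods of the study give 9 and 22 weeks, so that feeding time and library set cannot be told apart.

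In taste cells, a sweet, bitter or umami receptor activates the G protein gustducin, made of the alpha subunit Gnat3 and the beta and gamma subunits Gnb3 and Gng13. The beta-gamma pair stimulates the phospholipase Plcb2, which produces inositol trisphosphate (IP3), IP3 opens the calcium release channel Itpr3 in the endoplasmic reticulum, and calcium opens the cation channel Trpm5. Tuft cells of the intestine use parts of the same cascade to sense luminal compounds such as succinate, and RGS proteins such as Rgs13 end G protein signals by speeding up GTP hydrolysis.

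The libraries held 189340 to 4690213 reads assigned to genes, and 3 of the 45 libraries had under 700000. The tuft markers Dclk1, Pou2f3 and Avil had group medians of 366 to 1089, 17.8 to 54.3 and 296 to 623 TPM (transcript abundance corrected for gene length and scaled to a fixed total), so that the defining markers of the labelled cell type were present in all 4 groups. Markers of other cells were also present. The summed TPM of 7 Paneth cell markers, led by Defa24, had a median of 10191 on RFD (range 193 to 236399) and 75438 on HFD (415 to 398405) at 9 weeks, and of 3577 on RFD (179 to 149823) and 39036 on HFD (149 to 289635) at 22 weeks. The most abundant enterocyte marker, Fabp1, had group medians of 14930 to 27962 TPM. Eosinophil markers, which matter because eosinophils also carry Siglec-F, summed to medians of 0.98 to 1.81 TPM in the 4 groups. The mean log2 CPM (counts per 1e6 reads after TMM normalisation) of the 28 tuft markers, none of which is a cascade gene described here, was lowest in HFD mouse 80 at 9 weeks (4.09, against a group median of 7.75) and in HFD mouse 6 at 22 weeks (5.42, against 8.79). RFD mouse 3 at 22 weeks had no Gnat3 read although it had 874 Trpm5 reads. In bulk libraries of this kind, fewer tuft cells and less RNA per tuft cell cannot be told apart.

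The cascade was expressed very unevenly. On the TPM scale, which corrects for gene length, Rgs13 had the highest median over the 45 libraries (644 TPM, range 3.23 to 1292), followed by Trpm5 (519 TPM, range 2.16 to 1278), Gng13 (67.7 TPM, range 0 to 301), Plcb2 (39.8 TPM, range 0.99 to 152), Gnat3 (38.0 TPM, range 0 to 172), Itpr3 (3.04 TPM, range 0.66 to 9.84) and Gnb3 (0 TPM, range 0 to 3.64). Rgs13 and Trpm5 were above 99.57% and 99.46% of all genes by median TPM, and Itpr3 was above 78.0%. In a paired permutation test with sign flips over the 45 libraries (100000 resamples, two-sided, Benjamini-Hochberg over 6 pairs of neighbours, threshold 0.05), 5 of the 6 neighbours in this order differed. Rgs13 exceeded Trpm5 in 36 of 45 libraries by a mean of 0.35 ± 0.59 on the log2(TPM + 1) scale (SD, permutation test, adjusted p = 0.0006). Plcb2 and Gnat3 did not pass this test, with a mean difference of 0.29 ± 1.07 (SD) and Plcb2 higher in 25 of 45 libraries (permutation test, adjusted p = 0.0656). The order within the upper and middle genes was not the same in both library sets. In the 22 libraries of the 9-week set alone, Rgs13 against Trpm5 (adjusted p = 0.47) and Gng13 against Plcb2 (adjusted p = 0.365) no longer differed, and Plcb2 exceeded Gnat3 by 0.56 in 17 libraries (adjusted p = 0.000735). In the 23 libraries of the 22-week set alone, Rgs13 exceeded Trpm5 in 22 (adjusted p = 1e-05, the smallest these permutations can give). With log2(TPM + 0.1) over the 45 libraries, Plcb2 and Gnat3 differed as well (permutation tests, adjusted p = 0.0464).

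The place of Gng13 in that order rested on how its length was counted. Gng13 is the shortest of the 7 genes, with 773 bases of annotated exon, and the labels and the methods of the study give different ranges for the length of the library inserts. Only 1444 reads fell on it in all 45 libraries, against 18237 on Plcb2 and 189364 on Trpm5. The deposited TPM implied a length for Gng13 of 0.0379 times that of Plcb2 (median of 43 libraries), while its annotated exons were 0.117 times as long. With CPM per kilobase of annotated exon, chosen after the data were seen, the medians were 556 for Rgs13, 320.0 for Trpm5, 30.8 for Gnat3, 30.2 for Plcb2, 15.8 for Gng13 and 3.66 for Itpr3, so that Gng13 fell below Plcb2 and Gnat3.

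For several steps of the cascade another gene of the same role was more abundant in these bulk libraries than the taste gene itself. The libraries also held markers of other cells, and which cells these reads came from was not tested. Gnb3, the beta subunit of taste cell gustducin, had no read in 34 of the 45 libraries and at most 4 reads in the other 11, 21 reads in all. A count of 0 allows up to 3 reads, which is 1.86 CPM in the median library and 23.3 CPM in the shallowest, and no fold change is given for Gnb3. The beta subunit genes Gnb1 and Gnb2 had group medians of 56.1 to 74.3 and 48.1 to 68.6 TPM. The IP3 receptor gene Itpr2 had group medians of 68.5 TPM on RFD and 23.1 TPM on HFD at 9 weeks, and of 76.2 TPM on RFD and 51.9 TPM on HFD at 22 weeks. It was higher than Itpr3 in 43 of 45 libraries, with a median ratio of 14.5. Among gamma subunits Gng5 was the most abundant, with a median of 809.8 TPM, and among phospholipases C it was Plcg2, with 84.5 TPM, which was above Plcb2 in the median. The calcium pump gene Atp2a3, which refills the endoplasmic reticulum, had a median of 391 TPM. Beside Trpm5, its close relative Trpm4 had a median of 4.2 TPM and Trpm7 one of 17.7 TPM.

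Taste receptors, at the top of the cascade in taste cells, were at or near 0. Of 21 taste receptor genes (Tas1r and Tas2r families), 20 had at most 10 reads in every library, 2 of these had no read at all, and only Tas1r3, with at most 12 reads and a median of 0.35 TPM, passed the filter. The 3 other receptors of the list were all tested. They were led by the short-chain fatty acid receptor Ffar3 with a median of 169 TPM, followed by the succinate receptor Sucnr1 with 61.9 TPM and the vomeronasal receptor Vmn2r26 with 7.90 TPM.

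**Figure D1:**
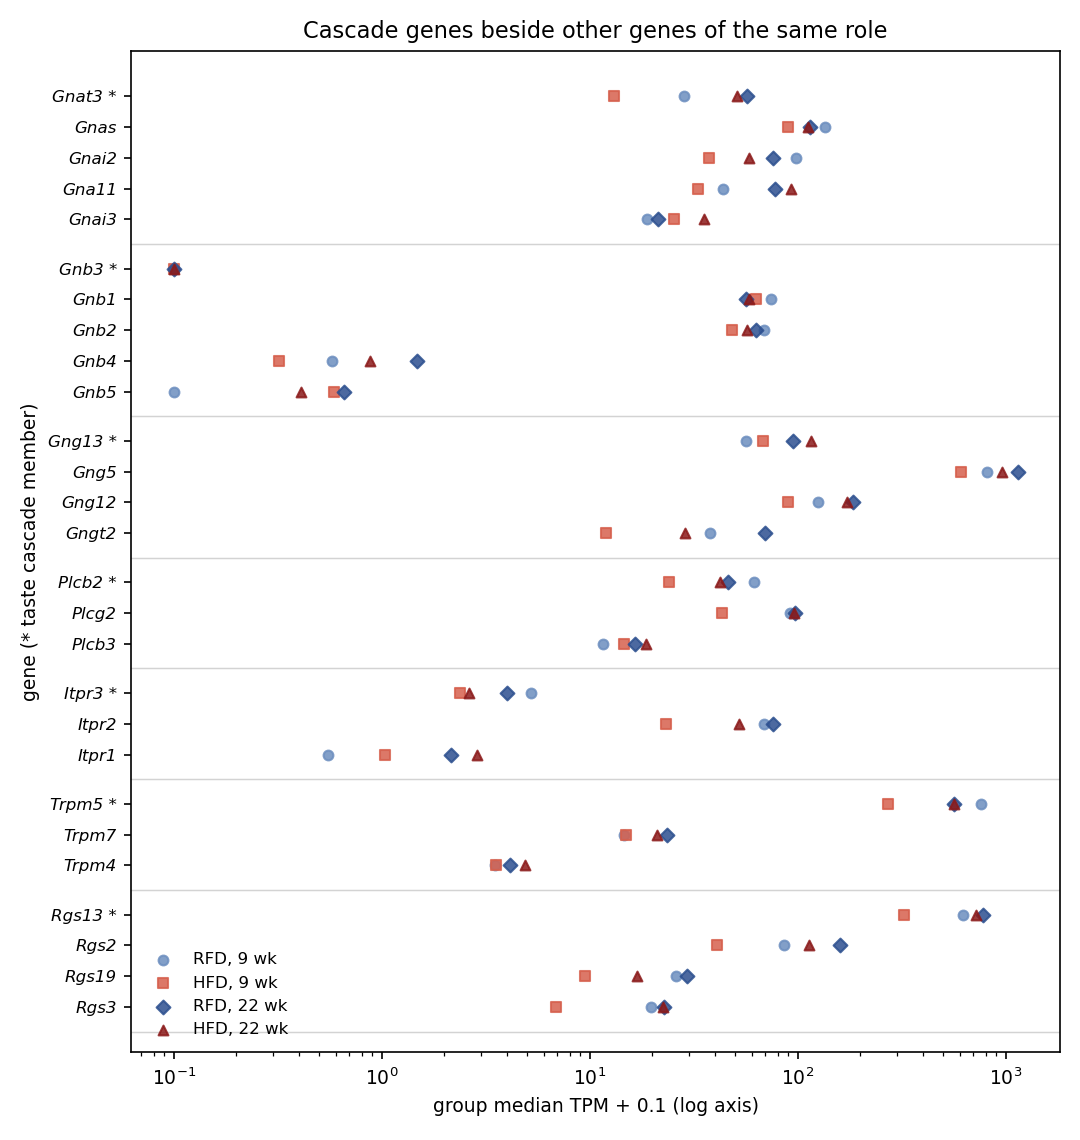
Group median TPM plus 0.1 on a log axis for the 7 cascade genes (asterisk) and other genes of the same role, with 1 symbol for each of the 4 groups of diet and feeding time (11 or 12 libraries each). Gnb3 lies at 0 in all groups while Gnb1 and Gnb2 lie above 40, Itpr2 lies to the right of Itpr3 in every group, and Trpm5 and Rgs13 lie far to the right of the other genes of their roles shown.

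The closest pair of members, Trpm5 and Plcb2, is set beside Itpr3, which followed the others least in log2 CPM. The 250 bases before the start of each are shown from the RefSeq promoter table (GRCm38.p6), on the strand of the gene. Of the 7 genes, 6 had an entry in that table, with 7 promoters in all because Gng13 has more than 1 start. Capitals mark the octamer ATGCAAAT, the letters bound by POU factors such as the tuft cell regulator Pou2f3, found here on the opposite strand as ATTTGCAT.
Trpm5, chr7:143094643-143094892, minus strand: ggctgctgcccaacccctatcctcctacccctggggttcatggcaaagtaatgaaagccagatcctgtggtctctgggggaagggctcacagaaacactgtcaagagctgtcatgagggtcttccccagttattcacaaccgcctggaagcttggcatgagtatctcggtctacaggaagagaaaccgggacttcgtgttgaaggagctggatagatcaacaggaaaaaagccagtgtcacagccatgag
Plcb2, chr2:118728439-118728688, minus strand: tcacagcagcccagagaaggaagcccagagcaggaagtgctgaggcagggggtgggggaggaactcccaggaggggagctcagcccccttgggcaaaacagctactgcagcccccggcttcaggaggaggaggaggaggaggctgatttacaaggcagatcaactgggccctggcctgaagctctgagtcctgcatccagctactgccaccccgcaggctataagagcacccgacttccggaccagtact
Itpr3, chr17:27057054-27057303, plus strand: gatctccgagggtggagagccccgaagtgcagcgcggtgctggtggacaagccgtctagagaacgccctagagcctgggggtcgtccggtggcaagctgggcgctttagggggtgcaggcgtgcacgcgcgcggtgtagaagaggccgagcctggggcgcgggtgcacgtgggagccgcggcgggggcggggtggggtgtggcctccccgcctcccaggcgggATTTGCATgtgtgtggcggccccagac
The octamer stood in 1 of the 7 member promoters, that of Itpr3, starting 27 bases before the gene start, and in 1.60% of the 32851 promoters of the table. The TATA box letters TATAAA stood in 0 of the 7 and in 12.4% of all promoters. The Ets letters GAGGAAGT stood in 0 of the 7 and in 2.44% of all, with both strands searched each time. The promoter of Itpr3 had 72.0% G and C, against 62% for Plcb2, 52.8% for Trpm5 and a median of 52.4% over the table. A match of letters is a description and does not show binding.

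None of the 6 tested genes passed the count test of HFD against RFD at either feeding time. At 9 weeks, 0 of 6 had an adjusted p under 0.1 by the quasi-likelihood test of edgeR (Benjamini-Hochberg over 14020 genes), where 3.32% of all genes did. An unadjusted p under 0.05 was found for 2 of the 6, Itpr3 and Rgs13, where 18.0% of all genes had one. DESeq2 called 1 of the 6, Itpr3, where it called 18.5% of the genes with an adjusted p, and an exact Wilcoxon test called 0 (5.53% of all genes). At 22 weeks, edgeR called 0 of 6 (0.792% of all genes), with 0 of 6 at an unadjusted p under 0.05 (10.3% of all genes). DESeq2 (3.85% of the genes with an adjusted p) and the exact Wilcoxon test (0.799% of all genes) each called 0. At 9 weeks the median log2 fold change was -0.67 for the 6 genes, beside -0.05 for all genes tested. For the 6 genes it was -1.03 and -1.15 with limma on log2(TPM + 1) and log2(TPM + 0.1), and -0.21 with the mean tuft marker level minus that of other cell markers as a covariate. At 22 weeks it was -0.28, beside -0.03, and for the 6 genes it was -0.16 both without HFD mouse 6 and with that covariate. Single libraries weighed heavily on the background. Without HFD mouse 80, the library with the lowest tuft marker mean, 69 genes were called at 9 weeks in place of 466, and without RFD mouse 3 there were 241 at 22 weeks in place of 111. With each of these left out the count for the 6 genes was still 0.

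Trpm5, the channel at the end of the cascade, had 457 to 5650.0 CPM (median 2750.4) on RFD and 47.3 to 5106 CPM (median 998) on HFD at 9 weeks. The groups overlapped, and 9 of 11 HFD mice lay below the RFD median while 5 lay below every RFD mouse. The lowest value was that of HFD mouse 80, and the highest HFD value, in mouse 64, was above all but 1 RFD mouse. The log2 fold change was -1.14 (SE 0.61, edgeR adjusted p = 0.335), and with limma on log2(TPM + 1) it was -1.71. Within the 3 series of mouse numbers in the titles, the mean log2 CPM on HFD minus that on RFD was -2.29 for the numbers 1 to 8, -0.78 for multiples of 10 and -0.75 for the other numbers from 21 to 64, with 3 or 4 mice per diet in each (mouse 84 of this set and mouse 65 of the 22-week set fall in none). At 22 weeks Trpm5 had 481 to 3346 CPM (median 2148) on RFD and 127 to 2982 CPM (median 2007) on HFD, with a log2 fold change of -0.37 (SE 0.33, edgeR adjusted p = 0.758). Here 11 of 12 HFD mice lay below the RFD median, although the 2 medians were close to each other. Within the series the differences were -0.47, -0.19 and -0.48.

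Itpr3, the IP3 receptor of the taste cascade, had the smallest unadjusted p of the 6 genes at 9 weeks. It had 18.3 to 71.4 CPM (median 58.1) on RFD and 15.4 to 46.3 CPM (median 31.9) on HFD. All 11 HFD mice lay below the RFD median and 8 of 11 RFD mice lay above every HFD mouse, while the 3 remaining RFD mice overlapped with HFD. The log2 fold change was -0.70 (SE 0.24, edgeR unadjusted p = 0.00702 and adjusted p = 0.129). DESeq2 gave -0.73 with an adjusted p of 0.0364, and over the other alternatives at this time the adjusted p ranged from 0.103 to 0.595. Within the series the differences in mean log2 CPM were -1.10, -0.02 and -0.61. At 22 weeks Itpr3 had 10.0 to 80.7 CPM (median 38.6) on RFD and 12 to 43.7 CPM (median 25.9) on HFD, and 11 of 12 HFD mice were below the RFD median. The log2 fold change of -0.48 (SE 0.27, edgeR adjusted p = 0.558) fell to -0.32 without RFD mouse 3, whose 80.7 CPM was the highest of the set. Within the series the differences were -0.60, 0.01 and -0.35.

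Plcb2, the phospholipase that makes IP3, had 62.2 to 404 CPM (median 258) on RFD and 12.4 to 673 CPM (median 113) on HFD at 9 weeks. As for Trpm5, 9 of 11 HFD mice were below the RFD median and 5 below every RFD mouse, while HFD mouse 64 was above every RFD mouse. The log2 fold change was -0.63 (SE 0.56, edgeR adjusted p = 0.589), and the differences within the series were -1.99, -0.94 and -0.21. On the limma scales it was -1.28 with log2(TPM + 1) and -1.44 with log2(TPM + 0.1), and as a difference of mean log2 CPM it was -1.35. At 22 weeks Plcb2 had 53.0 to 359 CPM (median 240.2) on RFD and 12.7 to 292 CPM (median 170.5) on HFD. The log2 fold change was -0.46 (SE 0.32, edgeR adjusted p = 0.653), and the differences within the series were -0.92, -0.38 and -0.43.

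Gnat3, the gustducin alpha subunit, had 6.93 to 69.9 CPM (median 39.1) on RFD and 2.90 to 217 CPM (median 14.4) on HFD at 9 weeks. Although 9 of 11 HFD mice were below the RFD median, the remaining 2, among them mouse 64 with 217 CPM, were above every RFD mouse. The fold change between group means was therefore near 0 (log2 0.01, SE 0.60, adjusted p = 0.995, edgeR), whereas the mean difference on the log2(TPM + 1) scale was -0.74 (adjusted p = 0.707, limma). The differences of mean log2 CPM within the series were -1.71, -0.03 and 0.62. At 22 weeks Gnat3 had 0 to 103 CPM (median 67.4) on RFD and 1.95 to 134 CPM (median 54.4) on HFD, with a log2 fold change of -0.17 (SE 0.46, edgeR adjusted p = 0.940). Within the series the differences were 0.53, -0.18 and -0.16, and the first holds RFD mouse 3 with its count of 0.

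Gng13, the gustducin gamma subunit, was measured with few reads, a median of 19 per library. It had 0 to 29.8 CPM (median 10.6) on RFD and 0 to 29.9 CPM (median 10.1) on HFD at 9 weeks, and the log2 fold change was -0.05 (SE 0.53, edgeR adjusted p = 0.979). At 22 weeks it had 3.94 to 27.4 CPM (median 13.7) on RFD and 3.90 to 62.9 CPM (median 15.4) on HFD, with a log2 fold change of 0.31 (SE 0.39, edgeR adjusted p = 0.841). The differences within the series came to -0.95, 0.04 and 0.45 for 9 weeks, with 0.18, 0.33 and 0.18 for 22 weeks. On the limma scales the 9-week value was -0.78 with log2(TPM + 1) and -0.88 with log2(TPM + 0.1), and as a difference of mean log2 CPM it was -0.31.

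Rgs13, the regulator of G protein signalling, had 267 to 1206 CPM (median 983) on RFD and 23.7 to 1048 CPM (median 479.9) on HFD at 9 weeks. Of the HFD mice, 10 of 11 were below the RFD median and 5 were below every RFD mouse, while 3 RFD mice were above every HFD mouse. The log2 fold change was -0.90 (SE 0.41, edgeR unadjusted p = 0.0355 and adjusted p = 0.244), and the differences within the series were -1.73, -1.08 and -0.35. With limma on log2(TPM + 1) it was -1.36. At 22 weeks Rgs13 had 223 to 1577 CPM (median 1116) on RFD and 96.5 to 1915 CPM (median 936) on HFD, with a log2 fold change of -0.18 (SE 0.31, edgeR adjusted p = 0.893). The differences within the series were -0.32, 0.09 and -0.33, and 1 HFD mouse, mouse 6, was below every RFD mouse while 2, mice 50 and 70, were above every RFD mouse.

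**Figure D2:**
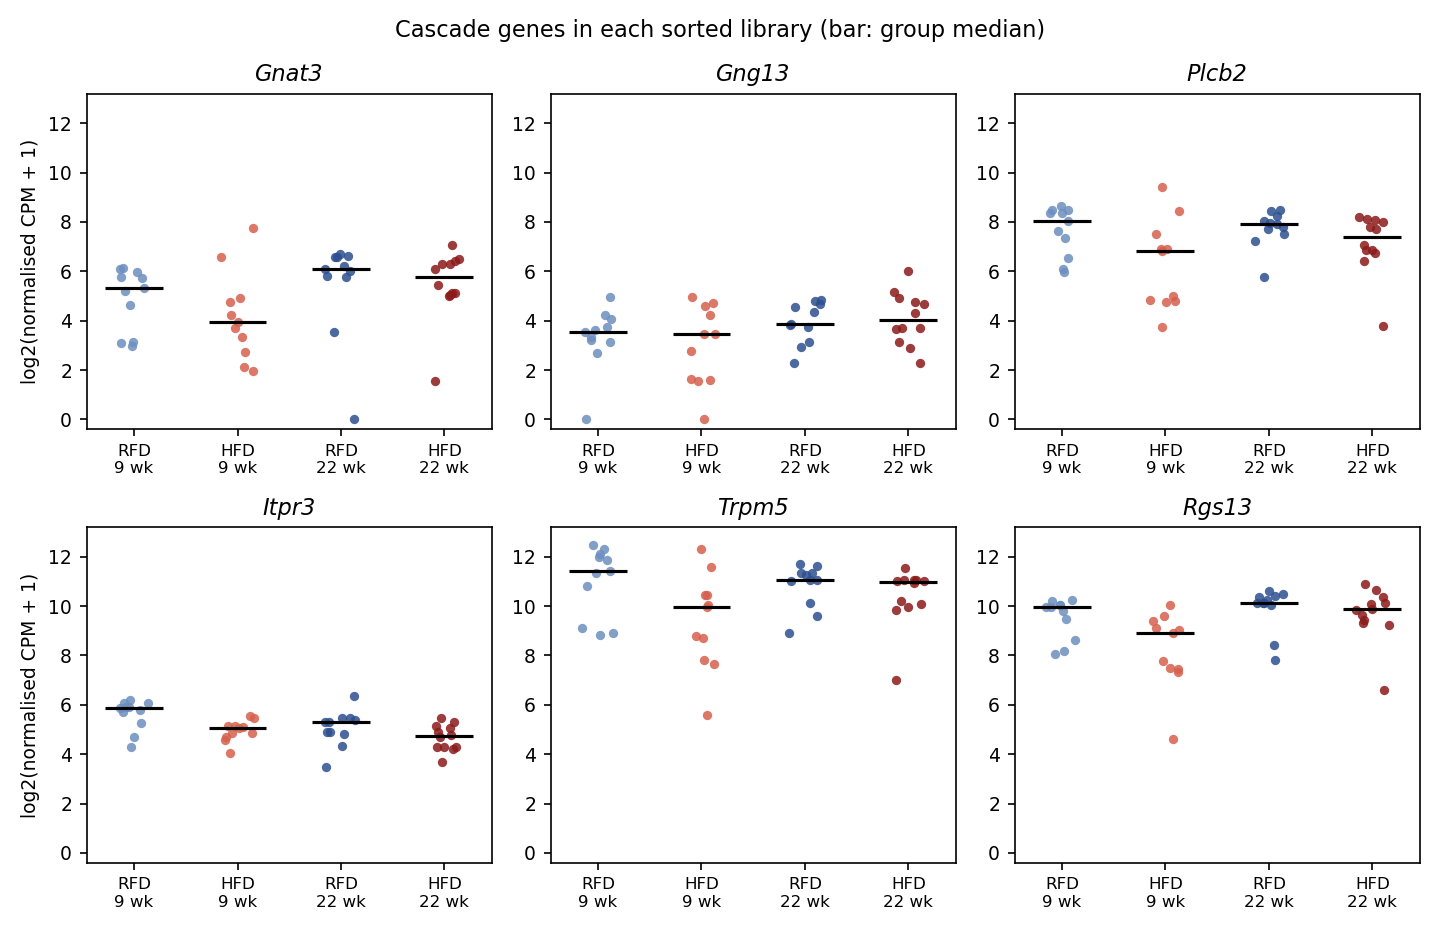
Each point is 1 library, with log2(normalised CPM + 1) on the vertical axis, the 4 groups of diet and feeding time on the horizontal axis and the bar at the group median. The groups overlap for every gene, and Itpr3 spans a narrower range than the other 5 genes. The HFD medians at 9 weeks lie lowest for Trpm5, Plcb2, Gnat3 and Rgs13 and, by a small margin, for Gng13.

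**Figure D3:**
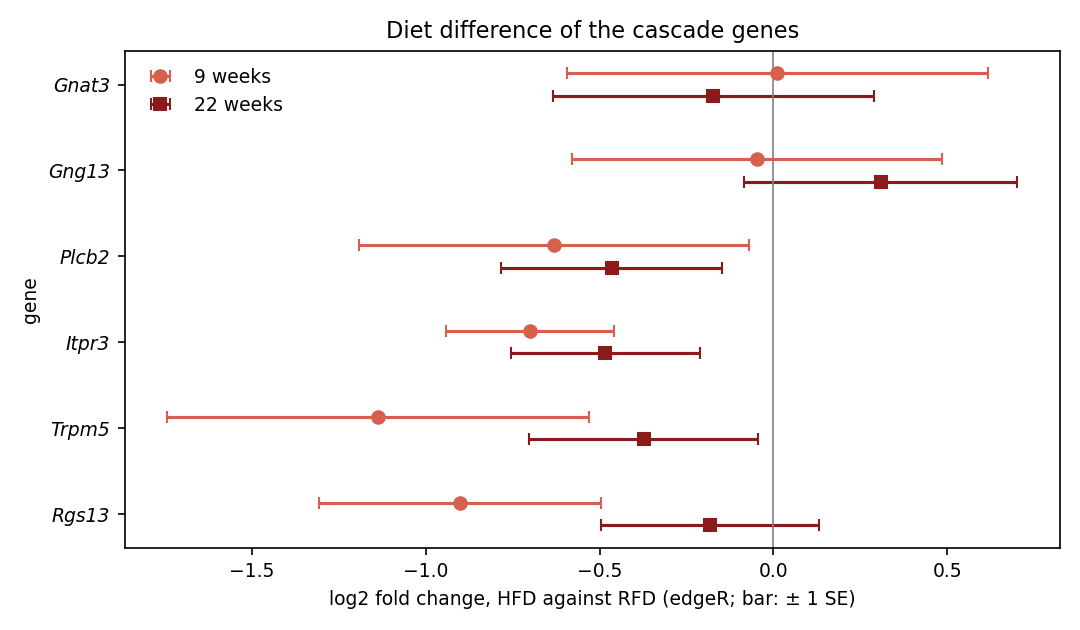
Log2 fold change of HFD against RFD from edgeR with 1 SE for the 6 tested genes at 9 weeks (circles, 11 against 11 mice) and 22 weeks (squares, 11 against 12 mice). The values lie between -1.14 and 0.31, and none passed the adjusted threshold.

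The diet difference did not differ detectably between the 2 library sets. The interaction of diet and set gave 0 of 6 cascade genes at an adjusted p under 0.1 and 0 of 6 at an unadjusted p under 0.05 in edgeR's quasi-likelihood test, where 0.0% and 3.22% of all 14020 genes passed. DESeq2 gave 0 of 6 as well. The largest interaction estimate was that of Trpm5, 0.82 on the log2 scale with an SE of 0.71 (unadjusted p = 0.26, edgeR). A further fit took mouse number as a block and used only the 32 libraries, of 45, whose numbers both sets hold. The mice of the 2 sets were killed at different times, so the same number is not the same mouse and does not pair them. In that fit the estimate for Trpm5 was 2.31. An unadjusted p under 0.05 was found for 3 of 6 genes (Trpm5, Plcb2 and Gng13), where 697 of 14020 genes had one (edgeR). An adjusted p under 0.1 was found for 0 of 6, and for 0 of all genes.

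The tuft markers also had a lower mean on HFD at 9 weeks. The mean of the 28 tuft markers was 8.66 ± 1.02 log2 CPM on RFD and 7.35 ± 1.60 on HFD (SD, n = 11 each), a difference of -1.31 (SE 0.57), and 9 of 11 HFD mice were below the RFD median. At 22 weeks the difference was -0.41 (SE 0.40). Relative to that mean, which is a comparison chosen after the data were seen, Trpm5 differed by -0.31 (SE 0.19), Plcb2 by -0.04 (SE 0.18) and Rgs13 by 0.05 (SE 0.16) at 9 weeks, on the log2 scale. The remaining 3 genes had positive differences, 0.58 (SE 0.28) for Gnat3 with 3 of 11 HFD mice below the RFD median, 0.65 (SE 0.50) for Itpr3 with 4 of 11, and 1.00 (SE 0.31) for Gng13 with 0 of 11. At 22 weeks the differences were 0.59 (SE 0.28) for Gng13, 0.46 (SE 0.43) for Gnat3, 0.20 (SE 0.09) for Rgs13 and 0.03 (SE 0.48) for Itpr3. Those of Trpm5 and Plcb2 were -0.01 (SE 0.10) and -0.19 (SE 0.20). Of the 12 HFD mice, 0 were below the RFD median for Rgs13, 2 for Gng13 and 2 for Gnat3. Gng13 has few reads, and a prior count of 2 was added in the log2 CPM, which limits how far a low value can fall. With the difference between tuft and other markers as a covariate, the log2 fold changes at 9 weeks were -0.26 for Trpm5, -0.33 for Rgs13, -0.46 for Itpr3, -0.15 for Plcb2, 0.42 for Gnat3 and 0.41 for Gng13, with adjusted p of 0.595 or more (edgeR). The part of cell composition in these values was not tested.

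Across the 45 libraries, 5 of the 6 genes varied together in log2 CPM, and Itpr3 followed them least on that scale. Correlations were computed on log2 CPM for 15 pairs, with permutation tests (100000 resamples, two-sided) adjusted over the 15 pairs. The median Spearman rho was 0.67 (0.13 to 0.95). The closest pair was Trpm5 and Plcb2, with rho = 0.95 and Pearson r = 0.95 (adjusted p = 1.5e-05 by permutation, from the smallest p the permutations can give), and r was 0.94 without the 2 libraries farthest from the Trpm5 median. Within the 4 groups this rho ran from 0.85 to 0.98, and within the 3 series of mouse numbers it was 0.86, 0.95 and 0.92. By rank of rho over deviations from the group means, Trpm5 was the gene most like Plcb2 among 14019 other genes, while Plcb2 was the 15th most like Trpm5, whose closest gene was Inpp5d, a lipid phosphatase of the tuft marker list. The ratio of Trpm5 to Plcb2 on the TPM scale had a median of 11.8 (2.18 to 21.7). Gnat3 and Rgs13 had rho = 0.84 and r = 0.84, and r was 0.88 without the 2 farthest libraries. Their rho in the 3 series was 0.84, 0.92 and 0.56.

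Itpr3 had rho = 0.56 with Trpm5 (r = 0.39, adjusted p of rho = 0.000123, permutation test) and 0.51 with Plcb2 (r = 0.37, adjusted p of rho = 0.000525, permutation test). Its rho was 0.13 with Gnat3, 0.16 with Gng13 and 0.15 with Rgs13, and these 3 did not pass (adjusted p = 0.397, 0.328 and 0.336, permutation test). On log2(TPM + 1), rho of Itpr3 was 0.746 with Trpm5 and 0.691 with Plcb2. With Gnat3, Gng13 and Rgs13 it was 0.32, 0.408 and 0.38 on that scale. Trpm5 there had rho of 0.741 with Gnat3, 0.685 with Gng13 and 0.735 with Rgs13, so Itpr3 followed Trpm5 about as closely as these did. In log2 CPM, the rho of Itpr3 and Trpm5 was 0.80 in RFD mice and 0.39 in HFD mice at 9 weeks. At 22 weeks it was 0.21 in RFD mice and 0.32 in HFD mice. Over the 3 series of numbers it was 0.30, 0.26 and 0.84. For Rgs13 and Trpm5 rho was 0.491, 0.945, 0.564 and 0.944 in the same 4 groups, and 0.907, 0.923 and 0.032 over the 3 series. The span of Itpr3 in CPM was also the narrowest of the 6 genes, 8.04-fold between the lowest and highest library. It was 119-fold for Trpm5, 112-fold for Gnat3 in 44 libraries, 80.9-fold for Rgs13, 54.2-fold for Plcb2 and 32.6-fold for Gng13 in 43 libraries. HFD mouse 80 at 9 weeks had Trpm5 at 2.31%, Rgs13 at 2.57%, Plcb2 at 6.23% and Gnat3 at 8.07% of their 45-library CPM medians. Gng13 had no read there, and Itpr3 was at 102% of its CPM median. In TPM, Itpr3 was lowest in that same library, at 0.66 against a median of 3.04. The place of Itpr3 in this library thus depended on the scale.

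**Figure D4:**
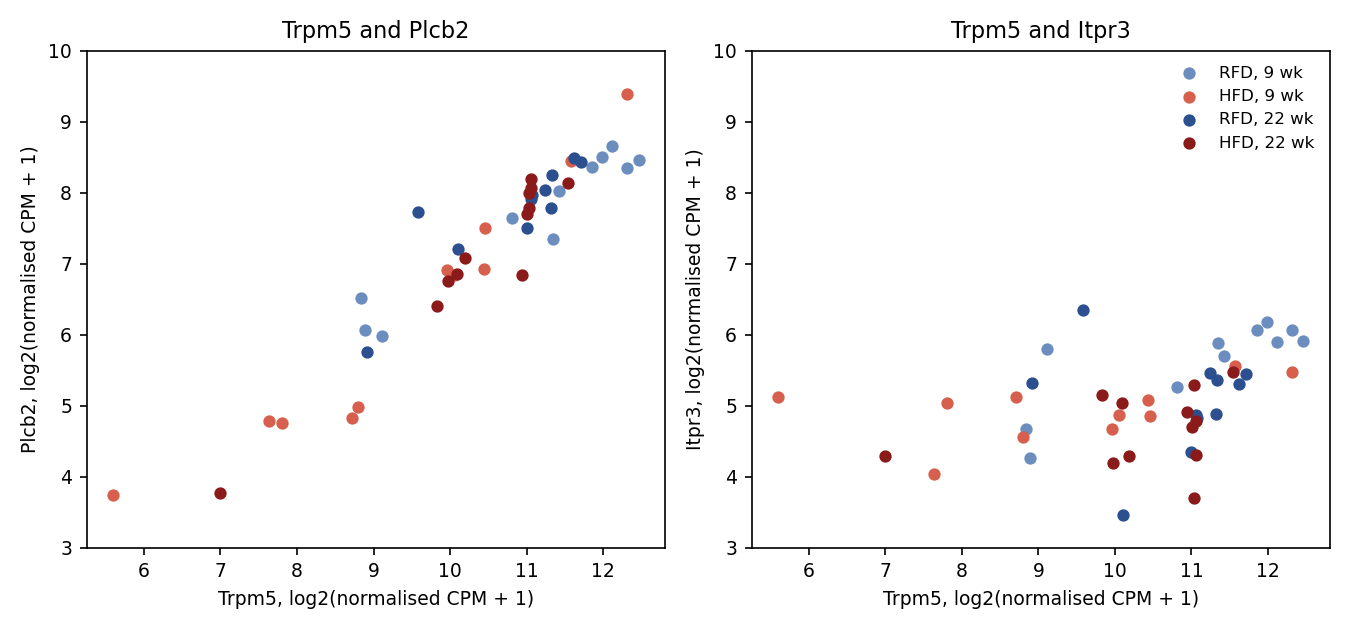
Log2(normalised CPM + 1) of Plcb2 (left) and Itpr3 (right) against that of Trpm5, with 1 point per library coloured by diet and feeding time. Plcb2 follows Trpm5 over the whole range (rho = 0.95), while Itpr3 stays within a narrow band, also in the libraries where Trpm5 is lowest (rho = 0.56).

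With the tuft marker mean, rho was 0.94 for Trpm5, 0.91 for Plcb2, 0.86 for Rgs13, 0.82 for Gnat3, 0.72 for Gng13 and 0.43 for Itpr3 (n = 45). For the first 5 the adjusted p was 1e-05, the smallest that the permutations can give, and r was 0.75 or more also without the 2 libraries farthest from the median marker mean. For Itpr3 the adjusted p of rho was 0.00324, but r was 0.26 with an adjusted p of 0.0807 (permutation tests). The relation was not equal in all series of mouse numbers. In the numbers 21 to 64, where the tuft marker mean varied least (SD 0.44 over 15 libraries, against 1.19 and 1.69 in the others), rho with it was 0.90 for Trpm5, 0.84 for Plcb2 and 0.71 for Itpr3 but 0.28 for Gnat3, 0.24 for Rgs13 and 0.13 for Gng13. The median rho over the 15 pairs was 0.31 in that series and 0.78 and 0.88 in the others. When the groups and the difference between tuft and other markers were taken out, the median rho over the pairs was 0.30, that of Trpm5 and Plcb2 was 0.67, and that of Itpr3 and Rgs13 was -0.36. All 6 genes ran against the mean of the Paneth cell markers, with rho from -0.39 (Itpr3) to -0.63 (Plcb2). Correlations with the total reads of a library were 0.07 to 0.32.

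**Figure D5:**
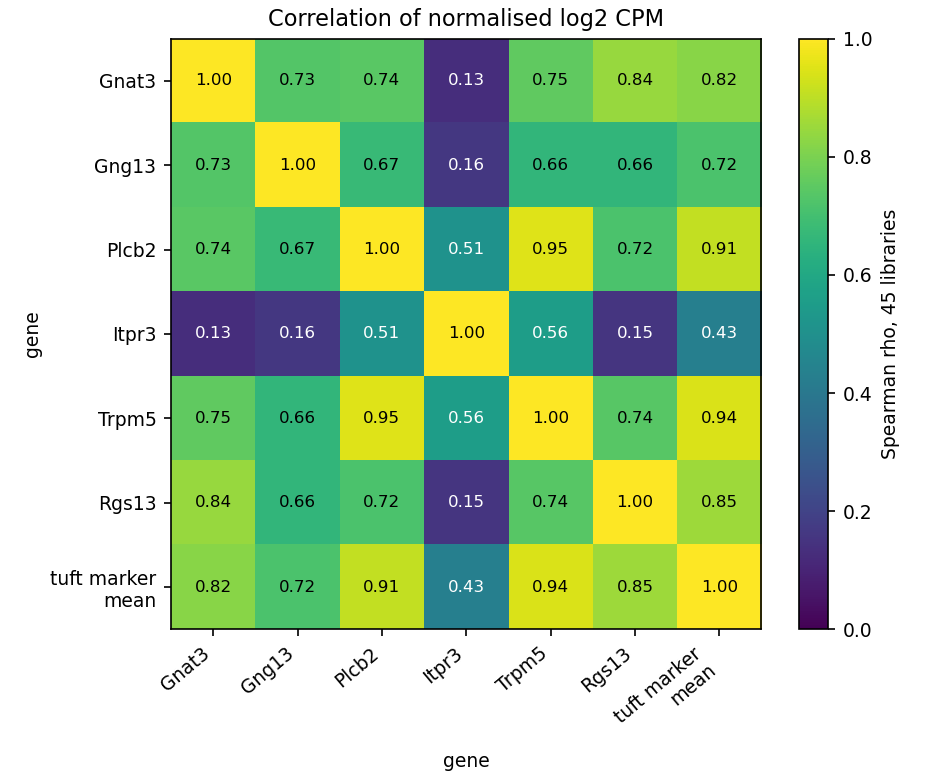
Spearman rho over 45 libraries between the 6 tested cascade genes and the mean of 28 tuft markers, computed on normalised log2 CPM, with the colour scale from 0 to 1. The row of Itpr3 is the only one with values under 0.6 throughout, and Trpm5, Plcb2 and the tuft marker mean form the block of highest values.

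The genes whose pattern was most like the mean of the 6 cascade genes, by rho over deviations from the group means in 45 libraries, were Tuba1a (0.95), Sh2d7 (0.95), Matk (0.94), Atp2a3 (0.94), Ano7 (0.94), Ptpn6 (0.94), Cd300lf (0.94), Sh2d6 (0.94), Trak1 (0.94) and Reep5 (0.94). Of these 10 genes, 5 are in the list of tuft markers and Atp2a3 is in the list of other cascade genes. They share libraries and depth with the cascade genes, and the values are a description.

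The remaining cascade genes were taken from a list of 96, of which 59 were tested. At 9 weeks edgeR called 0 of the 59 (3.32% of all genes), with 5 at an unadjusted p under 0.05 (18.0% of all genes). DESeq2 called 2, where it called 18.5% of the genes with an adjusted p. These were Pde4d and Itpr2, which were chosen for naming after their values were seen. The exact Wilcoxon test called 0 (5.53% of all genes). The median log2 fold change of the 59 was -0.31, beside -0.05 over all genes. At 22 weeks edgeR called 1 of the 59 (0.792% of all genes), which was lower on HFD. It was Adcy6, an adenylyl cyclase that makes cyclic AMP, with 6.93 to 18.4 TPM (median 10.0) on RFD and 3.18 to 10.4 TPM (median 6.94) on HFD. The groups overlapped, and the log2 fold change was -0.85 (SE 0.18, edgeR adjusted p = 0.026). The call was lost with limma on TPM, with no filter on low counts and with 1 fit over the 45 libraries (adjusted p 0.186 to 0.417). At 9 weeks the value for Adcy6 was -0.61 (SE 0.35, edgeR adjusted p = 0.367).

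Which of the paralogs went with the taste genes differed by role. Of the 59 genes, 14 (23.7%) had rho over 0.7 with the mean of the 6 cascade genes over 45 libraries, beside 6.37% of the 14014 other tested genes. Among IP3 receptors it was Itpr2 (rho = 0.92) and not Itpr1 (-0.52), and among phospholipases it was Plcg2 (0.89) and not Plcb3 (-0.69). Among beta subunits Gnb2 had rho = 0.81 and Gnb1 -0.07. Among alpha subunits Gnai2 (0.80) and Gnas (0.77) went with the mean, while Gnai3 ran against it (-0.74). The receptors Ffar3, Vmn2r26 and Sucnr1 had rho of 0.86, 0.74 and 0.72, and the ATP-release channel subunit Calhm3 had 0.80. Of the most abundant genes of the other roles, Gng5 had 0.80, Pde4d, a cyclic AMP phosphodiesterase, 0.81, Rgs2 0.75 and the potassium channel Kcnq1 0.02. Genes named here beyond the most abundant of each role were chosen after their values were seen.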

How the data were processed

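Reads were processed by the authors: per the submitters' processing notes in the labels, adapters were trimmed with cutadapt (version 1.15), reads were aligned to GRCm38 with STAR (version 2.6.0) and quantified with RSEM. The deposited values used here are RSEM expected counts per gene, of which 8.79% of those above 0 were not whole, and the deposited TPM. Symbols and exon lengths came from GENCODE M21. The deposited FPKM values and 24 columns that matched no labelled sample were not used, and the correction of reads by estimated cell type proportions and the rank-based test that the authors used were not repeated.

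Counts were rounded, genes with more than 5 reads in at least 6 libraries were kept (14020), and edgeR (version 4.0.16, R 4.3.3) with TMM and the robust quasi-likelihood test compared the diets at each time, with Benjamini-Hochberg adjustment and a threshold of 0.1. DESeq2 (1.42.0) and limma (3.58.1) on log2(TPM + 1) were alternatives. The edgeR fit was also run on simulated counts, with the same variability for all genes, so that the spread of single cascade genes was not matched. The smallest change simulated was 1 on the log2 scale, and few of these were called. All estimates for the cascade genes but that of Trpm5 at 9 weeks were smaller, and such changes were not simulated. The lack of a call therefore does not show that these genes were unchanged. Each library came from 1 mouse. The biological coefficient of variation was 0.794 at 9 weeks and 0.702 at 22 weeks. Log2 CPM used a prior count of 2. Correlations and orders of TPM used permutation tests in Python (scipy 1.17.1). Floors of 3 reads cover counting error only. The labels of the diets share no mouse number within a set. The 7 genes, the gene lists and the tests were chosen with earlier results of these data known. Genes named were the 7, each other cascade gene called at either time, the most abundant gene of each role and of each marker list, the tuft markers Dclk1, Pou2f3 and Avil, and the 10 genes most like the mean of the 7 (here of the 6 tested), unless stated otherwise. Alternatives covered the test, normalisation, filter, scale, number series, marker covariate, shallow libraries (under 700000 reads) and mitochondrial genes with AY036118 and Lars2.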

Additional observations from a re-analysis of the deposited data

How the results depend on the processing

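The count of cascade genes called was 0 of 6 at both times in every alternative except DESeq2 at 9 weeks, which called 1. With no filter Gnb3 was fitted as well, and it was not called at either time. Other cascade genes called at 9 weeks numbered 2 with DESeq2 (18.5% of the genes with an adjusted p) and 1 with no filter (1698 of 32549 genes). At 22 weeks they numbered 2 with no filter (435 of 34543 genes). They numbered 0 with limma on log2(TPM + 1) or log2(TPM + 0.1) and in 1 fit over 45 libraries. The calls with no filter were Rgs21 at 9 weeks and Rgs18 and Rgs10 at 22 weeks. These genes failed the main filter, with at most 5, 5 and 88 reads in a library. The genes called at 9 weeks numbered 1534 with DESeq2, 776 by the exact Wilcoxon test, 1698 with no filter, 290 without shallow libraries, 23 with the tuft marker covariate, 11 and 5 with limma on log2(TPM + 1) and log2(TPM + 0.1), and 69 without HFD mouse 80. At 22 weeks they numbered 351, 435, 185, 203, 54, 35, 63 and 241 with DESeq2, no filter, the number series, the marker covariate, both limma scales in that order, 1 fit over 45 libraries, and without RFD mouse 3. The cause of these changes was not tested. Leaving out HFD mouse 80, HFD mouse 6 or RFD mouse 3 and the CPM per kilobase of exon were chosen after seeing the data. Gnat3, near 0 in the count test, turned to -0.74 and -0.90 on the limma scales, -0.73 as a difference of mean log2 CPM and -0.002 in 1 fit over 45 libraries at 9 weeks, and to 0.077, 0.31 and 0.046 on the first 3 of these scales at 22 weeks. Gng13 at 9 weeks turned from -0.05 to 0.41 with the marker covariate and to 0.079 without HFD mouse 80, and was -0.78, -0.88 and -0.31 on the limma scales and as a difference of mean log2 CPM. The median rho between members moved to 0.30 after removal of groups and marker score and to 0.37 in RFD mice at 22 weeks alone. The share of calls that were higher on HFD at 9 weeks was 280 of 466, and without shallow libraries 134 of 290. At 22 weeks it was 61 of 111, by the exact Wilcoxon test 88 of 112, and with no filter 148 of 435. In the interaction, the block by mouse number over 16 numbers held by both sets called 0 of 6. It had 3 of 6 at an unadjusted p under 0.05 (697 of 14020 genes). Without the block 0 of 6 had such a p (451 of 14020 genes). Over all genes the interaction called 65 with no filter and 0 in the other fits. The numbers did not pair the mice, since the correlation of deviations ran from -0.38 to 0.38 and was over 0.1 in 2 of 16. Neighbours in the TPM order that differed numbered 5 of 6 in the main test. Gnb3 and 20 of the 21 taste receptors had too few reads to pass the main filter.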

Other observations

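Other cell types were also represented by their most abundant listed marker. The goblet cell marker Tff3 had group medians of 630 to 1463 TPM, the enteroendocrine marker Sct of 347 to 1066 TPM and the stem cell marker Olfm4 of 36.9 to 614 TPM. Olfm4 had a median of 139 TPM on RFD and 614 TPM on HFD at 9 weeks, and of 36.9 TPM and 92.2 TPM at 22 weeks. The T cell marker Cd8a, the eosinophil marker Ccr3 and the myeloid marker Lyz2 had group medians of at most 0.66, 0.75 and 2.17 TPM, the M cell marker Ccl9 of 3.31 to 10.4 TPM and the plasma cell marker Jchain of 0.31 to 23.3 TPM. Gnat3, Rgs13 and Trpm5 had a rho of -0.65, -0.79 and -0.64 with the mean of the stem and cycling markers over 45 libraries, and Itpr3 one of -0.22. The most abundant tuft marker was Krt18, with group medians of 7370.4 to 16437 TPM.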
